A study of Mus musculus with 7 samples.

Results

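The receptors of the TREM family (triggering receptors expressed on myeloid cells) and their signalling adaptors were examined in microglia of the mouse dorsal hippocampus. The set has 8 genes of the 55401 in the deposited table: the receptor genes Trem1, Trem2, Trem3, Treml1, Treml2 and Treml4, and the adaptor genes Tyrobp (DAP12) and Hcst (DAP10). They were picked by symbol as a gene family, with the difference between the groups of these libraries already known, so that difference is given for them as a description and without a p-value. All libraries came from C57BL/6 mice of 6 to 8 weeks, described as male, and AAV-RAM-Cre had been injected into the dorsal dentate gyrus of every mouse. RAM is a synthetic promoter that responds to neuronal activity, so that Cre is made in neurons active during an experience. Control mice also received the Cre-dependent virus AAV-Dio-EYFP, giving the fluorescent protein (4 libraries, EYFP 1 to 4). The other mice received AAV-Dio-Atg7-Flag, giving Flag-tagged ATG7, an autophagy enzyme (3 libraries, ATG7 1 to 3). The transgene is therefore directed at neurons, while RNA was taken from cells enriched on beads against CD11b, a surface protein of microglia and of other myeloid cells. Whether a library came from 1 mouse or from pooled mice is not given, so the tests below measure the spread between libraries only.

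TREM receptors have a short cytoplasmic tail and most of them signal through a partner in the membrane. A basic residue in the membrane segment of the receptor pairs with an acidic residue of Tyrobp, whose immunoreceptor tyrosine-based activation motif (ITAM) recruits the kinase Syk, and Hcst adds a route to phosphoinositide 3-kinase. In brain, Trem2 is known as the microglial receptor for lipids and apolipoproteins, and loss of TREM2 or TYROBP in people causes a rare disease with early dementia and bone cysts. Trem1 and Trem3 are known from neutrophils and monocytes, Treml1 from platelets, and Treml4 from monocytes and dendritic cells.

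In GENCODE M21 on GRCm38, the 6 receptor genes lie in a cluster on chromosome 17 that spans 134.4 kb, all on the plus strand. The order is Trem1 (48232768 to 48246924), Trem3 (48247777 to 48258841), Treml4 (48264295 to 48275360), Treml2 (48299498 to 48312533), Trem2 (48346401 to 48354147) and Treml1 (48359916 to 48367176). Between Treml2 and Trem2 lies another protein-coding gene, B430306N03Rik (48316141 to 48327024), which RefSeq also lists as Treml6. It begins 3607 bases after the end of Treml2 and is not in the set. Tyrobp (chromosome 7, 30413760 to 30417585, plus strand) and Hcst (30417712 to 30419854, minus strand) run towards each other, with 126 bases between their ends. No stretch of 50 bases in the annotated transcripts of the 8 genes occurs in a transcript of another gene.

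Sequence 5′ of the start was available from RefSeq (GRCm38.p6) for 5 of the 8 members, and for B430306N03Rik. It was missing for Treml2, Tyrobp and Trem3. The 250 bases before the RefSeq start are shown for 3 genes of the cluster that differ in level: Trem2, the most abundant receptor, B430306N03Rik, which rose in ATG7, and Trem1, one of the scarcest. Capitals mark each match to GAGGAA on either strand (TTCCTC where it is on the other strand), the core letters bound by the myeloid ETS factor PU.1.
Trem2: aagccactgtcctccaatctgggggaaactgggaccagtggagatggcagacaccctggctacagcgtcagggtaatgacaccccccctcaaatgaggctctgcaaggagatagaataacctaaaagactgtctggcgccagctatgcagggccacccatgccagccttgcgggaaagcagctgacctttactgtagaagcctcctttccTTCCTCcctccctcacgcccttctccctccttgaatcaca
B430306N03Rik: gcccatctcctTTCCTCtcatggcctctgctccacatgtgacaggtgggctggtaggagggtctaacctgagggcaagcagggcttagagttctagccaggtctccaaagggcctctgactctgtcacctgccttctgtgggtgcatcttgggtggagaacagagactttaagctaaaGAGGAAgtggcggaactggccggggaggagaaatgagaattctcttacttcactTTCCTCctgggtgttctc
Trem1: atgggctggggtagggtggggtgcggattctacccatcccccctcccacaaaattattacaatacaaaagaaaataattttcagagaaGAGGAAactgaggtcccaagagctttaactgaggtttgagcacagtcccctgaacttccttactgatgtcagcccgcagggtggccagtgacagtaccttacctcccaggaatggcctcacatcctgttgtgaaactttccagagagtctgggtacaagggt
They correspond to chr17:48346151-48346400, chr17:48315912-48316161 and chr17:48232489-48232738, all on the plus strand. GAGGAA occurred once before Trem2, 3 times before B430306N03Rik and once before Trem1, and in 23.3% of all 32851 promoters of this length. Among the other genes matched, it occurred 2 times before Treml4 and not before Hcst or Treml1. The longer GAGGAAGT, which contains it, occurred only before B430306N03Rik among the 6 genes matched, beginning 72 bases before the start, and in 2.44% of all promoters. A match is a description of the letters and not evidence of binding.

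Library totals ranged from 35934210 to 55217119 counts. Atg7 itself, at 32.0 to 37.6 CPM (counts scaled to a common library total), did not pass the test between groups (log2 fold change -0.03, SE 0.0787, edgeR adjusted p = 0.939). The library labelled EYFP 3 went against the description of the mice as male: it had 938.5 CPM of Xist, a transcript of the inactive X chromosome, where the other 6 had 0.151 to 0.574, and the summed level of 4 Y-linked genes was 56.4 CPM against 245.5 to 315.8. Values without it are given below. Defining microglial markers were abundant, with 10 markers summing to 22590 to 27640 CPM in EYFP and 22340 to 27510 in ATG7. However, 6 choroid plexus markers summed to 54450 to 71790 CPM in EYFP and 46100 to 60780 in ATG7. This was above the microglial sum in every library, and the choroid plexus gene Ttr took 2.90% to 4.42% of the counts. In bulk RNA of this kind, fewer cells of a type and less RNA per cell cannot be told apart.

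Levels are given as CPM scaled by TMM factors (trimmed means of M values, which adjust for library composition), and a pair of means joined by "against" gives EYFP before ATG7. In the whole-table fit of ATG7 against EYFP, 1 of the 8 members, Treml2, had an adjusted p under 0.05 and was higher in ATG7 (edgeR quasi-likelihood test), beside 0.755% of the 19199 genes tested (0.688% called higher and 0.0677% called lower). DESeq2 also called 1 of 8, Treml2, beside 3.43% of the genes it gave an adjusted p. All 8 members had passed the filter on low counts. Treml2 was also the member whose groups did not overlap, beside 11.2% of genes tested that did not overlap (6.33% higher and 4.91% lower in ATG7). Because the members were chosen with this contrast known, nothing is read from these counts.

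**Figure D1:**
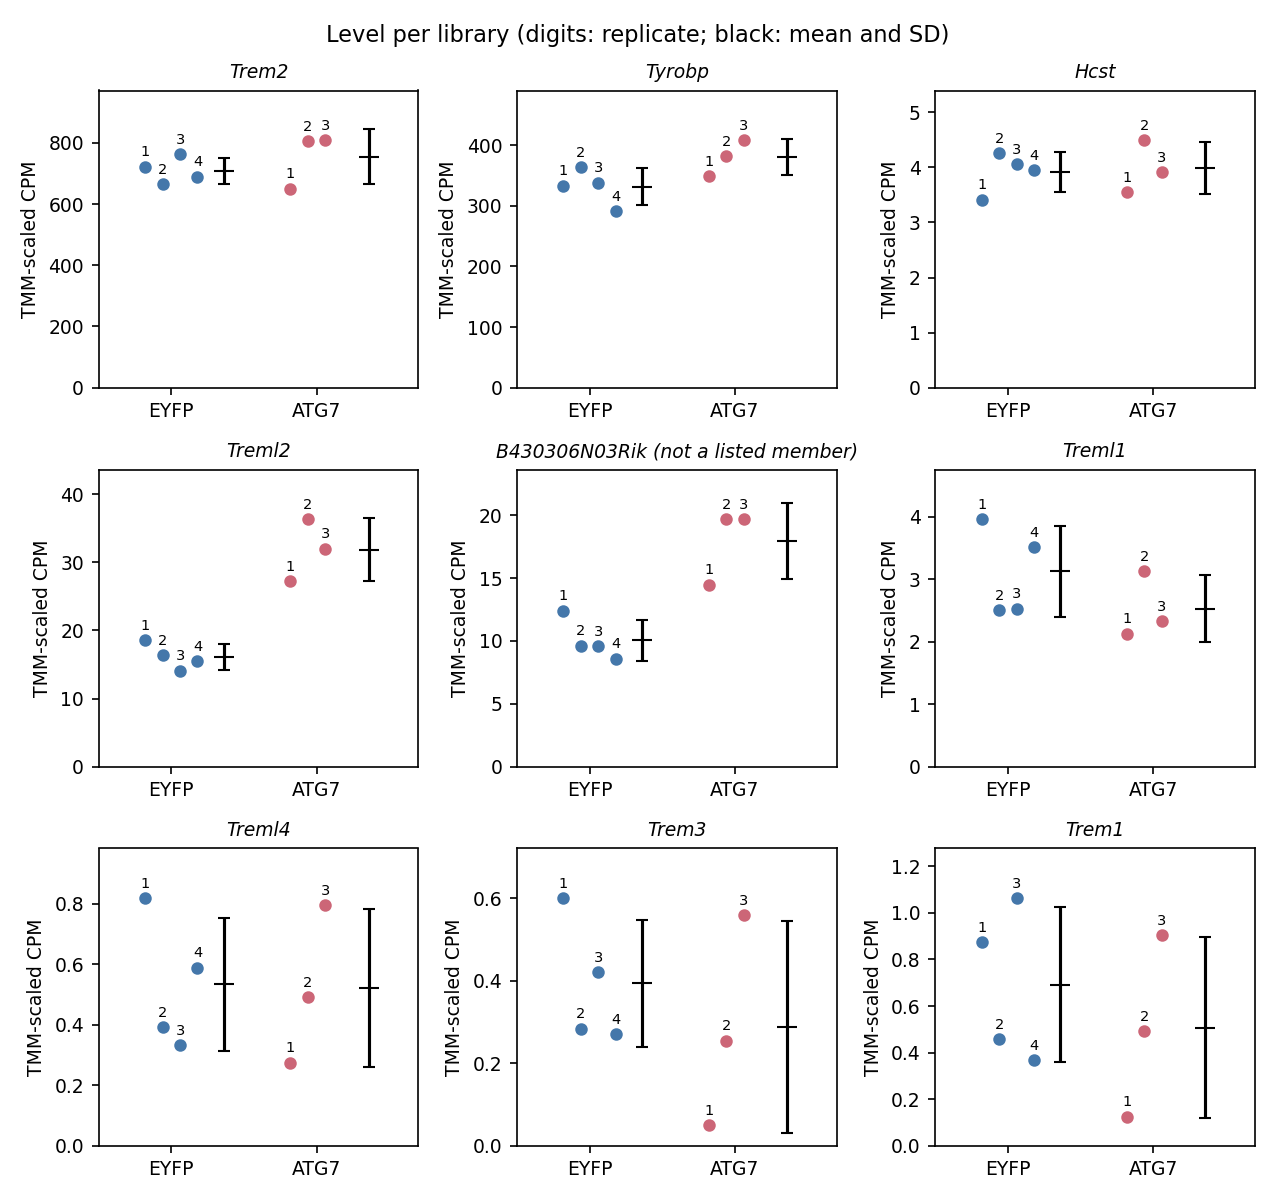
TMM-scaled CPM (vertical axes, each from 0) in the 4 EYFP libraries (blue) and 3 ATG7 libraries (red) for the 8 members and the neighbouring gene B430306N03Rik. Digits give the replicate and black bars the mean and SD. Treml2 and B430306N03Rik have every ATG7 library above every EYFP library, and the other genes overlap.

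Tyrobp, the ITAM adaptor shared by most TREM receptors, was among the abundant transcripts, ranking between 279 and 435 of all genes by CPM. It stood at 333.4, 363.6, 338.2 and 291.3 CPM in EYFP 1 to 4, compared with 349.0, 381.7 and 408.4 CPM for ATG7 1 to 3. ATG7 1 lay below EYFP 2, so the groups overlapped, although the 2 highest values were ATG7 2 and 3. The means were 331.6 ± 29.95 against 379.7 ± 29.8 CPM (SD, n = 4 and 3), and the log2 fold change was 0.20 ± 0.0936 (SE). Without EYFP 3 the log2 fold change stayed at 0.20.

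Hcst, the adaptor with a phosphoinositide 3-kinase motif, was measured at 3.42, 4.25, 4.06 and 3.95 CPM in EYFP 1 to 4, compared with 3.55, 4.496 and 3.91 CPM for ATG7 1 to 3. The groups covered nearly the same range, with means of 3.92 ± 0.358 against 3.99 ± 0.478 CPM (SD, n = 4 and 3). Its log2 fold change was 0.025 ± 0.161 (SE), and 0.035 without EYFP 3. The sign was negative without EYFP 1 (-0.03) or ATG7 2 (-0.07). It rested on 125 to 247 counts per library, and its spread in EYFP (coefficient of variation 9.15%) was close to the 7.76% that counting error alone gives at this depth. Per kb of transcript, Tyrobp exceeded Hcst by 57.8 to 81.8 times across the 7 libraries.

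Trem2, the lipid-sensing receptor, was the most abundant member and took 0.0652% to 0.0802% of all counts. Its level was 721.7, 664.5, 762.7 and 689.8 CPM in EYFP 1 to 4, compared with 650.1, 805.8 and 809.4 CPM for ATG7 1 to 3. The lowest value of all and the 2 highest were in ATG7, so the groups overlapped fully. Means were 709.7 ± 42.4 against 755.1 ± 90.96 CPM (SD, n = 4 and 3), log2 fold change 0.09 ± 0.0992 (SE), and 0.12 without EYFP 3. The spread of Trem2 within EYFP was 5.97%, about 10 times the 0.579% of counting error.

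The receptor and its adaptor stood at similar levels per length. Trem2 was 1.16, 0.976, 1.2 and 1.26 times Tyrobp per kb in EYFP 1 to 4 and 0.995, 1.13 and 1.06 times in ATG7 1 to 3. The ratio thus stayed near parity in every library, with means of 1.15 ± 0.124 (SD, n = 4) and 1.06 ± 0.0663 (SD, n = 3) and overlapping groups.

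Treml2 encodes a TREM-like receptor that has been described on B cells, neutrophils and macrophages and whose tail lacks an ITAM. Its values were 18.6, 16.4, 14.1 and 15.5 CPM in EYFP 1 to 4, compared with 27.2, 36.4 and 32.0 CPM for ATG7 1 to 3. The lowest ATG7 library exceeded the highest EYFP library. Means were 16.1 ± 1.91 against 31.8 ± 4.58 CPM (SD, n = 4 and 3), a fold of 1.98, log2 fold change 0.98 ± 0.118 (SE). It was 0.92 without EYFP 3, and between 0.88 and 1.09 when each library was left out in turn. Within the chromosome 17 cluster, the share of counts that fell to Treml2 was 2.18% ± 0.298 against 3.94% ± 0.251 (SD, n = 4 and 3). Trem2 held 95.8% ± 0.573 against 93.4% ± 0.320 of them.

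Markers of cells that can also carry Treml2 were read beside it. The 11 neutrophil markers summed to 52.3 to 119 CPM in EYFP and 31.1 to 173.5 CPM in ATG7. In ATG7 1, 2 and 3 the sums were 31.1, 38.0 and 173.5 CPM, with Treml2 at 27.2, 36.4 and 32.0 CPM. Whether cell content accounts for the Treml2 difference was not tested. The 4 B cell markers summed to 0.488 to 1.24 CPM and 0.450 to 1.01 CPM. The 8 markers of natural killer (NK) and T cells did move with the groups: they summed to 2.46 to 6.37 CPM in EYFP and 7.10 to 18.5 CPM in ATG7, without overlap, although none passed the test singly (edgeR, 5 with an unadjusted p under 0.05, and 3 called by DESeq2). Among these 8 the log2 fold change was positive for all, with a median of 1.44. Across the 7 libraries, Treml2 and the mean log2 CPM of these markers gave r = 0.843 (exact permutation p = 0.00536, two-sided, adjusted 0.412) and rho = 0.929 (exact permutation p = 0.00675, adjusted 0.351). Without ATG7 3 and EYFP 3, the libraries farthest from the median marker level, r was 0.948. This had the smallest unadjusted Pearson p of the 104 relations between members and marker lists, and it did not pass after Benjamini-Hochberg adjustment. Both measures were higher in every ATG7 library than in every EYFP library, so the relation holds the difference between the groups, and with 4 and 3 libraries it cannot be tested within them. Of the 8 monocyte markers, 0 were called by edgeR, 2 were higher and 1 lower at an unadjusted p under 0.05, and DESeq2 called 1. Among them Plac8 was at 3.23 ± 1.19 against 8.79 ± 3.58 CPM without overlap (edgeR adjusted p = 0.128). Ly6c2 was at 2.75 ± 1.245 against 7.63 ± 5.33 CPM with overlap (edgeR adjusted p = 0.33). Of the 8 markers, 4 had a positive log2 fold change. The list summed to 884.9 to 1093 CPM in EYFP and 804.1 to 939.8 CPM in ATG7. Most of this sum was Ace, at 779.5 ± 114 against 632 ± 50.2 CPM, so it says little about the other markers.

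B430306N03Rik, the gene beside Treml2, was not in the set and was read because it lies inside the cluster. It rose in ATG7, with means of 10.04 ± 1.64 against 17.9 ± 3.01 CPM (SD, n = 4 and 3) and a log2 fold change of 0.84 ± 0.147 (SE, edgeR adjusted p = 0.0272). Its libraries were at 12.4, 9.62, 9.56 and 8.59 CPM in EYFP 1 to 4, compared with 14.5, 19.7 and 19.7 CPM for ATG7 1 to 3, so that all 3 ATG7 libraries lay above all EYFP libraries. The call rested on single libraries: the edgeR adjusted p was 0.0642, 0.0582 and 0.0961 without EYFP 2, 3 and 4, and 0.141 and 0.157 without ATG7 2 and 3. Without EYFP 1 (0.00648) or ATG7 1 (0.0236) the call was kept. Over these 7 fits the log2 fold change lay between 0.76 and 0.97. Per kb, Treml2 was 3.09 ± 0.303 (SD, n = 4) times B430306N03Rik in EYFP and 3.40 ± 0.262 (SD, n = 3) times in ATG7, with overlapping groups. In the map of the cluster, these neighbours stand above 0 and the genes on both sides lie near or below it.

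**Figure D2:**
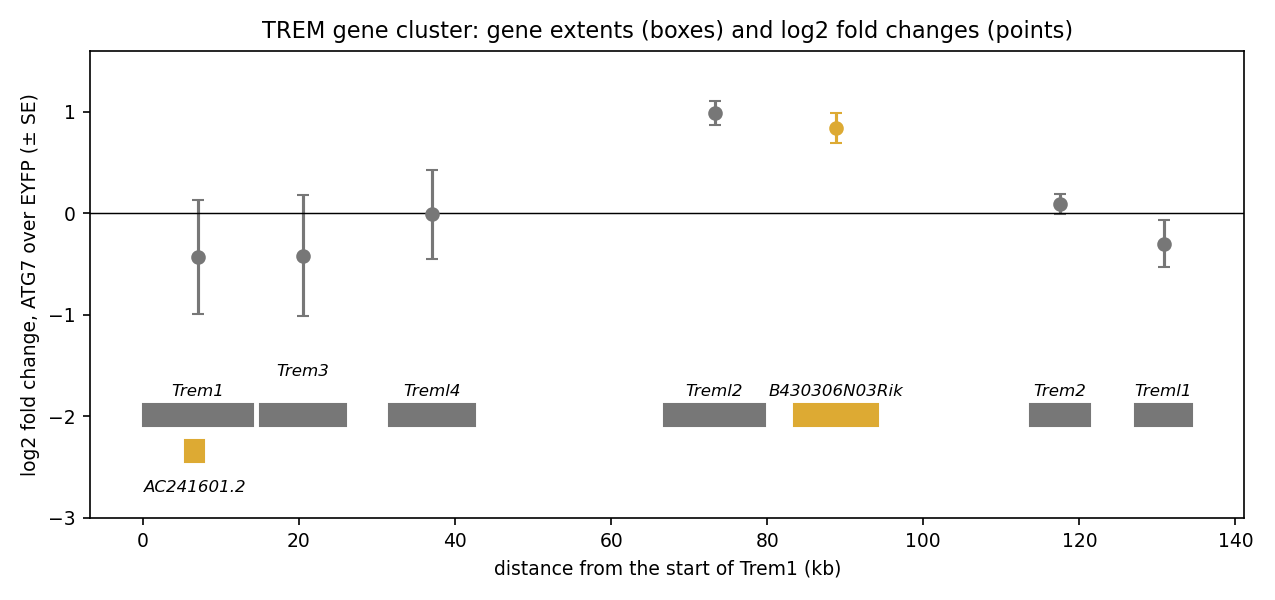
Gene extents in the TREM cluster (boxes, horizontal axis in kb from the start of Trem1) and log2 fold change of ATG7 over EYFP (points, with SE). Grey marks the members and yellow the other genes with counts. Treml2 at 0.98 and B430306N03Rik at 0.84 are adjacent, and the other points lie between -0.43 and 0.09.

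Trem1 amplifies inflammatory responses of neutrophils and monocytes, and it was scarce in these libraries. Its counts were 32, 21, 48 and 15 in EYFP 1 to 4, compared with 5, 27 and 42 for ATG7 1 to 3. These correspond to 0.874, 0.458, 1.06 and 0.368 CPM, and to 0.1249, 0.491 and 0.903 CPM. The groups overlapped, with ATG7 1 the lowest of all. The log2 fold change was -0.43 ± 0.561 (SE), and it ran from -1.12 without ATG7 3 to 0.01 without ATG7 1, so its sign rested on ATG7 1. A pseudogene on the opposite strand within Trem1, AC241601.2, had 0 to 6 counts per library, and no strand setting of the counting is given.

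Trem3, a mouse receptor close to Trem1 in place and in expression, had 22, 13, 19 and 11 counts in EYFP 1 to 4, compared with 2, 14 and 26 for ATG7 1 to 3. The 2 counts in ATG7 1 are under the floor of 3 and have an exact Poisson interval of 0.242 to 7.22 at 95%, which covers counting error only. Its log2 fold change was -0.42 ± 0.597 (SE), with 0.04 without ATG7 1 and -1.28 without ATG7 3. Without EYFP 3 the log2 fold change was -0.38, and that of Trem1 was -0.14.

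Because Trem1 and Trem3 are known from neutrophils, they were set beside the mean log2 CPM of 11 neutrophil markers, none of which was at 0 in every library. ATG7 1 had the lowest marker mean, 0.32, together with the least Trem1 and Trem3. Across the 7 libraries, Pearson's r was 0.839 for Trem1 (exact permutation p = 0.0165, two-sided) and 0.804 for Trem3 (exact permutation p = 0.0198). Spearman's rho was 0.786 for each (exact permutation p = 0.0480). In all, 104 relations were computed, 8 members by 13 marker lists, and none passed after Benjamini-Hochberg adjustment, which gave 0.412 for these r and 0.624 for these rho. Without ATG7 1 and ATG7 3, the libraries farthest from the median, r was 0.697 for Trem1 and 0.556 for Trem3. Trem1 and the 10 microglial markers gave r = 0.815 (exact permutation p = 0.0194, adjusted 0.412) and rho = 0.929 (exact permutation p = 0.00675, adjusted 0.351), with r = 0.755 without ATG7 1 and EYFP 2. For Trem2 and the microglial markers r was 0.929 (exact permutation p = 0.00794, adjusted 0.412) and rho 0.893 (exact permutation p = 0.0123, adjusted 0.426), with r = 0.815 without the same libraries. Trem2 ran against the choroid plexus markers, with r = -0.824 (exact permutation p = 0.0266, adjusted 0.461) and rho = -0.821 (exact permutation p = 0.0341, adjusted 0.624), and r = -0.876 without EYFP 2 and EYFP 4. Tyrobp gave r = 0.786 with the monocyte markers (exact permutation p = 0.0421, adjusted 0.616; rho = 0.607, exact permutation p = 0.167) and r = 0.779 with the endothelial and mural markers (exact permutation p = 0.0474, adjusted 0.616; rho = 0.571, exact permutation p = 0.2). Without ATG7 3 and EYFP 4 these were 0.350 and -0.429, so they rested on those libraries. With the NK and T cell markers Tyrobp gave r = 0.729 (exact permutation p = 0.0675, adjusted 0.726) and rho = 0.857 (exact permutation p = 0.0238, adjusted 0.619). That r was 0.873 without ATG7 3 and EYFP 3. The NK and T cell markers were higher in every ATG7 library than in every EYFP library. Their relation with Tyrobp therefore also holds the difference between the groups, and it cannot be tested within them.

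**Figure D3:**
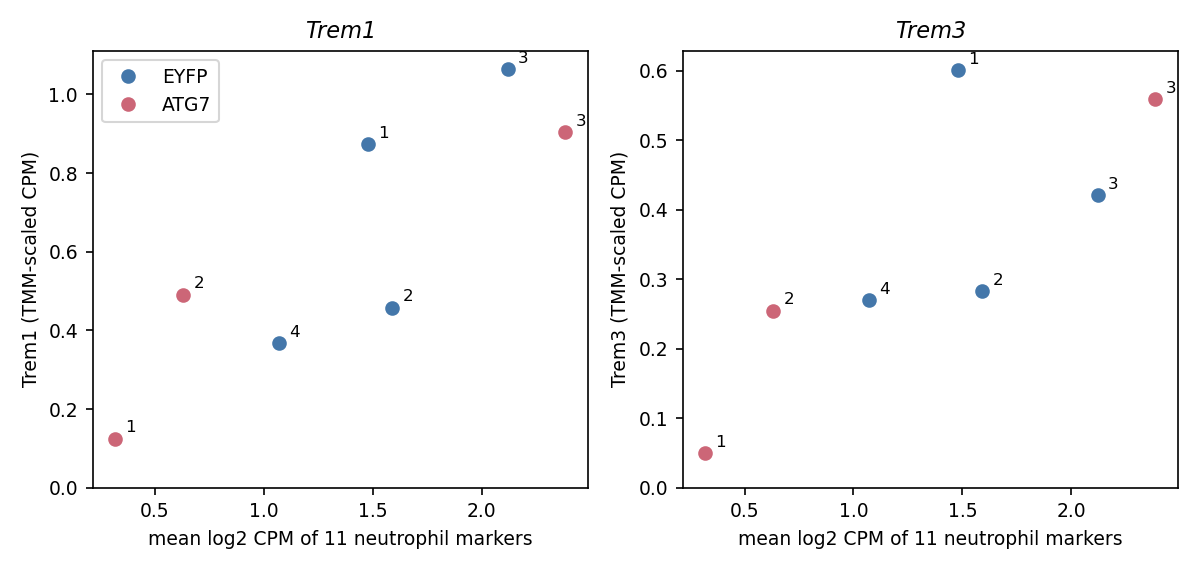
Trem1 (left) and Trem3 (right) in TMM-scaled CPM against the mean log2 CPM of 11 neutrophil markers, 1 point per library, with the replicate number beside it. ATG7 1 is lowest on both axes, and r is 0.839 and 0.804 over the 7 libraries.

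Treml4, a receptor that sensitises endosomal Toll-like receptor 7 in myeloid cells, had 30, 18, 15 and 24 counts in EYFP 1 to 4, compared with 11, 27 and 37 for ATG7 1 to 3. Its means were 0.533 ± 0.220 against 0.521 ± 0.262 CPM (SD, n = 4 and 3), and the groups overlapped, with ATG7 1 the lowest library. The log2 fold change was -0.01 ± 0.439 (SE), and its sign changed without EYFP 1 (0.26), EYFP 4 (0.04), ATG7 1 (0.28) or ATG7 2 (0.03). Leaving out EYFP 3 gave -0.19.

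Treml1, the receptor of platelet granules, was measured at 3.96, 2.51, 2.53 and 3.51 CPM in EYFP 1 to 4, compared with 2.12, 3.13 and 2.32 CPM for ATG7 1 to 3. ATG7 1 and 3 were the lowest, and ATG7 2 lay inside the EYFP range. Its log2 fold change was -0.30 ± 0.230 (SE), and -0.40 without EYFP 3. Of the 6 platelet markers, Gp1bb was at 0 in every library, which allows up to 0.0835 CPM in the shallowest, and most of the sum came from Gp9 and Itga2b. The list summed to 17.4 to 24.2 CPM in EYFP and 12.6 to 18.2 CPM in ATG7, and across the 7 libraries Treml1 and the mean of these markers gave r = 0.126 (exact permutation p = 0.776, adjusted 0.944) and rho = 0.214 (exact permutation p = 0.662, adjusted 1.0), with r = 0.161 without ATG7 3 and EYFP 4.

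Compared per kb of transcript, so that genes of different length can be set side by side, the levels spanned over 3 orders of magnitude. Trem2 (672 ± 40.2 CPM per kb in EYFP, SD, n = 4) and Tyrobp (588 ± 53.1) led, and their library ranges overlapped. Hcst (8.87 ± 0.811) and Treml2 (7.70 ± 0.911) came next and were not apart beyond their spread in EYFP, whereas in ATG7 Treml2 was at 15.2 ± 2.19 and Hcst at 9.02 ± 1.08 CPM per kb (SD, n = 3). Treml1 followed at 2.56 ± 0.596 CPM per kb, apart from the genes on either side in every EYFP library. Treml4 (0.637 ± 0.262), Trem3 (0.396 ± 0.155) and Trem1 (0.231 ± 0.111) were lowest, and each overlapped its neighbour in this order.

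**Figure D4:**
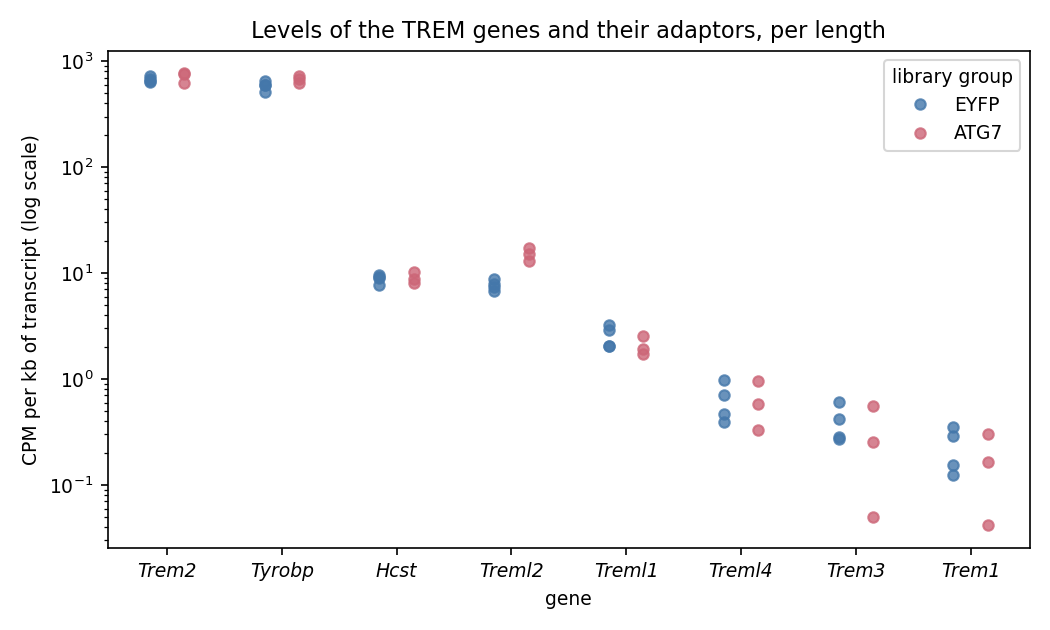
CPM per kb of the coding transcript with the longest reading frame (log axis) for the 8 members, 1 point per library, EYFP in blue and ATG7 in red. Trem2 and Tyrobp lie between 517 and 766, and Trem1 lies between 0.0417 and 0.356.

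For the 3 members with a mean of at least 10 CPM, the genes of most similar pattern were found by Pearson's r of log2 CPM over the 7 libraries after the mean of each group was subtracted. This measure leaves out the difference between the groups, and it is a description over few points that share libraries and depth. Trem2 was most like Osgep (0.995), Washc1 (0.993) and Slc44a2 (0.993), and 110 of 10260 genes reached 0.95. Treml2 was most like Dhx58 (0.979), Znfx1 (0.979) and Tle4 (0.973), of which Dhx58 encodes the RNA sensor LGP2. For Tyrobp the nearest were Rp2 (0.982), Bscl2 (0.982) and Elp5 (0.975). Among the members themselves the likeness was lower, at 0.428 for Trem2 with Tyrobp, 0.427 for Trem2 with Treml2 and 0.339 for Treml2 with Tyrobp. B430306N03Rik gave 0.838 with Treml2, 0.685 with Trem2 and 0.578 with Tyrobp.

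The wider pathway was read from 8 lists holding 110 genes, of which 107 were tested. In all, 5 were called higher in ATG7 and 0 lower (edgeR adjusted p under 0.05), 4.67% of those tested, where 0.688% of all genes tested were called higher. At an unadjusted p under 0.05 there were 29 higher and 1 lower, where 12% of all genes tested reached it. DESeq2 called 11, beside 3.43% of all genes it gave an adjusted p. The lists were chosen with earlier results of these data known. Nothing is therefore read from these shares or from the counts per list below. All 5 edgeR calls belong to the lists of disease-associated microglia, a state described around amyloid plaques. This state begins with a stage independent of Trem2 and continues with a stage that requires Trem2.

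Of the 13 genes of the Trem2-dependent stage, 4 were called higher by edgeR, and DESeq2 called 5. A positive log2 fold change was found for 12, and the median of the list was 0.49. For all genes tested, 9439 of 19199 were positive and the median lay at 0. Cst7, a cysteine protease inhibitor of endosomes, was at 14.1 ± 4.08 against 50.3 ± 4.93 CPM (SD, n = 4 and 3) and rose by 1.84 ± 0.212 (log2, SE; edgeR adjusted p = 0.0105). The integrin gene Itgax, at 34.2 ± 5.90 against 79.4 ± 12.2 CPM, rose by 1.22 ± 0.140 (log2, SE; edgeR adjusted p = 0.00705), and Csf1, a growth factor for microglia at 42.7 ± 3.31 against 65.2 ± 3.13 CPM, by 0.61 ± 0.0757 (log2, SE; edgeR adjusted p = 0.00705). Clec7a, the beta-glucan receptor Dectin-1, was at 35.8 ± 5.83 against 64.7 ± 3.53 CPM and rose by 0.85 ± 0.116 (log2, SE; edgeR adjusted p = 0.0105). EYFP 3, the library that went against the male label, was the lowest EYFP library for Cst7, Itgax, Clec7a and Csf1. For Csf1 it was lowest by little, at 40.55 CPM with 41.03 in EYFP 2. The 4 edgeR calls held without EYFP 3. Leaving out ATG7 2 ended the calls of Cst7 and Clec7a (adjusted p = 0.0569 and 0.0537), and leaving out ATG7 3 that of Clec7a (0.0729). With no filter on low counts the call of Cst7 was lost as well (edgeR adjusted p = 0.0599). Axl missed the threshold in edgeR at 103 ± 25.2 against 217 ± 40.4 CPM (SD, n = 4 and 3), log2 fold change 1.07 ± 0.207 (SE, edgeR adjusted p = 0.0692). Its groups did not overlap, and 3 of 14 alternative fits called it, DESeq2 among them. Lipoprotein lipase, Lpl, was at 28.8 ± 1.35 against 32.0 ± 4.38 CPM (SD, n = 4 and 3), and the tetraspanin gene Cd9 at 369.5 ± 11.7 against 396 ± 47.4 CPM.

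In the stage 1 list, B2m, the light chain of MHC class I, rose by 0.68 ± 0.128 (log2, SE; edgeR adjusted p = 0.0372), and 6 of 6 genes had a positive log2 fold change (median 0.26). That call was lost without EYFP 3 (0.0555), EYFP 4 (0.141), ATG7 1 (0.0546), ATG7 2 (0.147) or ATG7 3 (0.203). EYFP 3 was the lowest EYFP library for B2m as well, at 1135 CPM. The protease genes Ctsb and Ctsd did not pass in edgeR, with log2 fold changes of 0.34 and 0.32 (edgeR adjusted p = 0.128 and 0.172). DESeq2 called 3 of the 6 genes: B2m, Ctsb and Ctsd. Ctsb was at 2167 ± 80.2 against 2747 ± 155 CPM (SD, n = 4 and 3), without overlap. Ctsd was at 3056 ± 145 against 3810 ± 171 CPM, also without overlap.

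**Figure D5:**
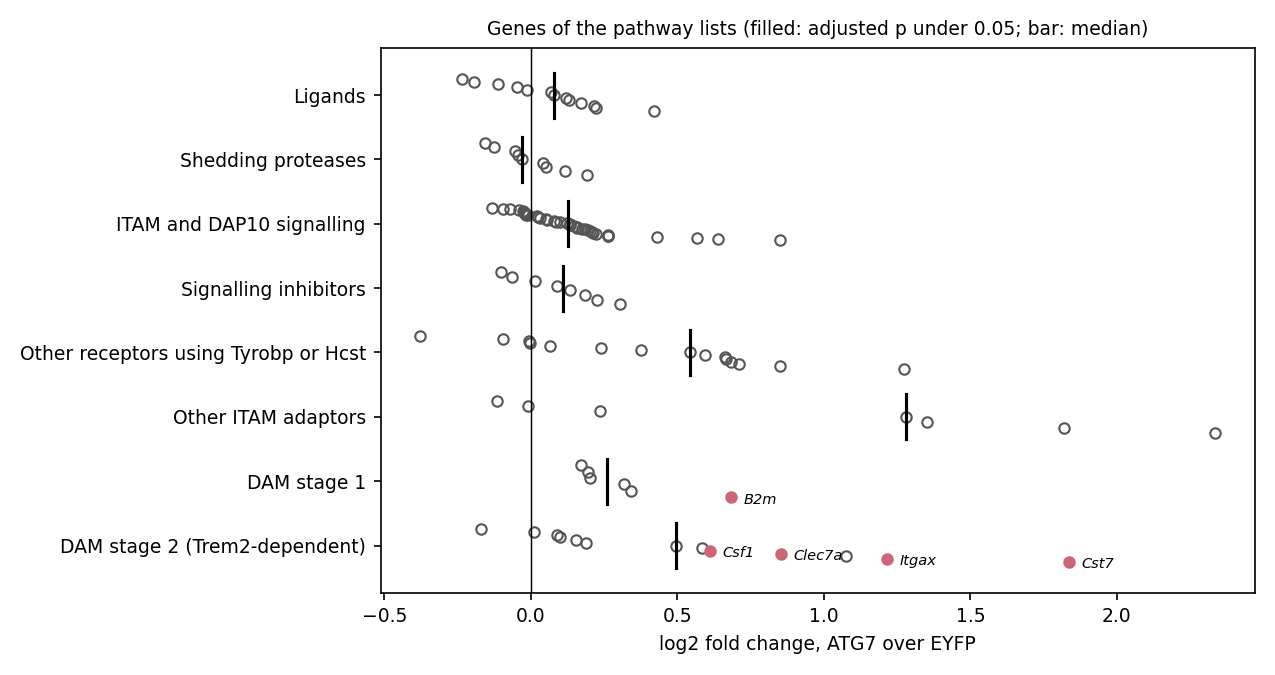
Log2 fold change of ATG7 over EYFP (horizontal axis) for every tested gene of the 8 pathway lists, with the list median as a bar. Filled points passed at an adjusted p under 0.05: B2m, and Csf1, Clec7a, Itgax and Cst7 in the Trem2-dependent list.

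Among the ligands that have been described for TREM receptors, 0 of 13 tested genes were called (edgeR, 1 at an unadjusted p under 0.05, 0 by DESeq2). Clu, the lipid carrier clusterin, had the smallest p, at 1398 ± 159 against 1189 ± 62.5 CPM (SD, n = 4 and 3), log2 fold change -0.23 ± 0.104 (SE, edgeR adjusted p = 0.406). Apoe, the main apolipoprotein of brain, was at 3038 ± 280.2 against 3425 ± 407 CPM. Among the proteases that shed Trem2 and cut its stub, 0 of 9 were called (edgeR, 1 at an unadjusted p under 0.05, 0 by DESeq2). Adam17, a sheddase, had the smallest p, log2 fold change 0.19 ± 0.0846 (SE, edgeR adjusted p = 0.404), and Adam10 was at 377.5 ± 32.3 against 391 ± 27.4 CPM (SD, n = 4 and 3).

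Downstream of the adaptors, 0 of 38 signalling genes were called (edgeR, 9 at an unadjusted p under 0.05, all higher in ATG7, and 2 by DESeq2), and 28 had a positive log2 fold change with a median of 0.13. Pik3ap1, an adaptor of phosphoinositide 3-kinase, was closest to the threshold, at 231 ± 10.5 against 311 ± 36.3 CPM (SD, n = 4 and 3), log2 fold change 0.43 ± 0.0902 (SE, edgeR adjusted p = 0.0610). Without ATG7 1 it was called (0.52, adjusted p = 0.0236), and without EYFP 1 as well (0.46, adjusted p = 0.0490). DESeq2 (adjusted p = 0.000494) and edgeR with no filter on low counts (adjusted p = 0.00783) also called Pik3ap1. Leaving out any other single library gave no call, with edgeR adjusted p from 0.0896 to 0.279. Syk, the kinase that binds the phosphorylated ITAM, was at 205 ± 28.2 against 238 ± 14.5 CPM, and Plcg2, the phospholipase below it, at 187 ± 21.6 against 208.5 ± 19.9 CPM. Of the 8 inhibitors, 0 were called (edgeR, 2 at an unadjusted p under 0.05, 0 by DESeq2). Pirb, an inhibitory receptor, had the smallest p, log2 fold change 0.30 ± 0.115 (SE, edgeR adjusted p = 0.315), while the lipid phosphatase gene Inpp5d was at 821 ± 123 against 828 ± 52.0 CPM.

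Other receptors that use Tyrobp or Hcst numbered 17, of which 15 were tested and 0 called (edgeR, 2 at an unadjusted p under 0.05, 0 by DESeq2). Siglech, a microglial lectin, was by far the most abundant of them at 834 ± 54.3 against 831.5 ± 88.6 CPM (SD, n = 4 and 3). Clec5a was at 80.7 ± 8.49 against 84.4 ± 6.45 CPM. Pilrb2 had the smallest p, at 0.458 ± 0.0458 against 0.822 ± 0.215 CPM, log2 fold change 0.85 ± 0.303 (SE, edgeR adjusted p = 0.285). Klrk1, the NKG2D receptor that pairs with Hcst on lymphocytes, was at 1.53 ± 0.681 against 2.42 ± 0.883 CPM.

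Of 7 other ITAM adaptors, 0 were called by edgeR (5 at an unadjusted p under 0.05) and 1 by DESeq2. Fcer1g, the adaptor of Fc receptors in myeloid cells, was at 238 ± 17.1 against 281 ± 30.5 CPM (SD, n = 4 and 3), log2 fold change 0.24 ± 0.0935 (SE, edgeR adjusted p = 0.338). The list median of 1.28 rests on scarce T cell genes such as Cd3d, at 0.189 ± 0.114 against 0.952 ± 0.647 CPM (log2 fold change 2.33, SE 0.564, edgeR adjusted p = 0.106), in which ATG7 3 was highest at 1.699 CPM. Cd3d and the other CD3 genes also belong to the NK and T cell markers given beside Treml2.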

How the data were processed

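Cells enriched for microglia with CD11b beads gave 7 RNA libraries, 4 EYFP and 3 ATG7, grouped by sample title. The authors deposited raw counts per Ensembl gene (55401 identifiers). The submitters' processing notes name fastp 0.20.1, HISAT2 2.0.5 and featureCounts with GRCm38; strand and shared-read settings and annotation release are not given in the sources used here. GENCODE M21 gave symbols for 55141 identifiers. The 37 mitochondrial genes held 0 counts. A floor of 3 counts is 0.0543 to 0.0835 CPM. No pair of libraries of a group agreed within counting noise (chi-square 19.2 to 41.3 per degree of freedom).

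All 7 libraries were fitted in edgeR 4.0.16 (R 4.3.3; TMM, filterByExpr, robust quasi-likelihood test, Benjamini-Hochberg over 19199 genes, two-sided, adjusted p under 0.05). SE is the absolute log2 fold change over the square root of F, and log2 CPM for correlations took 2 as prior count. The code was tested on simulated data. Alternatives were other scalings and filters, DESeq2 1.42.0, leaving out each library, a replicate block and a prior count of 0.5. The correlations with markers, and leaving out 2 libraries from them, were chosen after seeing the data.

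Members and lists were chosen with earlier results of these data known. Named by rule were the 8 members, genes of the cluster with a count, passing genes of each pathway list (at most 8, otherwise the smallest p), and the 3 genes of most similar pattern per member; other list genes were named after their values were seen. The remaining marker lists (border macrophages, dendritic cells, neurons, astrocytes, oligodendrocyte lineage, choroid plexus, endothelial and mural cells) had 0 genes called by edgeR and 0 by DESeq2. At an unadjusted p under 0.05 there was 1 gene each for border macrophages and astrocytes, both lower in ATG7, 1 higher for endothelial and mural cells, and 0 for the others.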

Additional observations from a re-analysis of the deposited data

Results flagged for a closer look

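Csf1 in EYFP 1 was at 47.6 CPM, apart from 41.03, 40.55 and 41.5 CPM in EYFP 2, 3 and 4 by Dixon's criterion for 4 samples. It was the only such value among 21 genes compared, where chance gives about 1.05, while the lowest ATG7 library read 62.7 CPM.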

How the results depend on the processing

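Under the 14 alternatives, Treml2 had log2 fold changes of 0.88 to 1.09, Trem2 of 0.03 to 0.19, Tyrobp of 0.13 to 0.25, Treml1 of -0.49 to -0.17 and Hcst of -0.07 to 0.10. Trem1 ran from -1.12 to 0.01, Trem3 from -1.28 to 0.04 and Treml4 from -0.45 to 0.28 (13 alternatives each). The member values moved by less than their spread between libraries in all 117 cases. The number of members called was 1 throughout except for 0 with the replicate block. Over all genes the reported fit called 145 (132 higher, 13 lower). No filter gave 297 (234 higher, 63 lower) and DESeq2 gave 582 (406 higher, 176 lower). The higher share was 91.0%, 78.8% and 69.8%. Leaving out 1 library gave 28 to 277 genes (26 to 209 higher, 2 to 68 lower), 277 without EYFP 1, 94 without EYFP 2, 30 without EYFP 4 or ATG7 3 and 28 without ATG7 2. Pathway genes called were 5, 11 with DESeq2, and 2 to 6 with 1 library left out (2 without ATG7 2, 3 without ATG7 3). The cause was not tested.

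Deviations of same-numbered libraries from their group means had correlations of -0.061, -0.182 and 0.066. Differently numbered pairs gave -0.145 to 0.215. With so few libraries these values cannot show whether same-numbered libraries shared a batch, and the labels name no batch. With the replicate block, 0 genes were called, 0 higher, 0 lower, 0 members and 0 pathway genes, with 1256 genes at an unadjusted p under 0.05. Counts below about 50 per library limit Trem1, Trem3 and Treml4.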
